A study of Vuilleminia comedens with 3 samples.

Results

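Protein kinases move a phosphate from ATP to other proteins and thereby switch enzymes, transcription factors and the cell cycle. In fungi, mitogen-activated protein kinase (MAPK) cascades carry signals on osmotic and oxidative stress, cell wall integrity and mating. Hybrid histidine kinases sense some of these signals upstream of such a cascade, and cyclin-dependent kinases time the cell cycle and transcription. The transcripts described here are those of the wood-decay fungus Vuilleminia comedens whose database match was an entry of Punctularia strigosozonata, a species of the same fungal order, with a kinase phrase in its product name. The phrases were the 10 of the membership rule, among them protein kinase, kinase-like protein, MAP kinase, histidine kinase and Pkinase. They selected 168 transcripts of 81106 assembled ones and of 9543 with a P. strigosozonata match. The 168 transcripts came from 102 genes as grouped by the assembler and matched 74 entries.

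The RNA came from 1 group of 3 replicates. Beech blocks of 2 cm3 were colonised by strain VcWVJH1 for about 8 weeks on plates with 0.5% malt extract. Pairs of blocks, both with that strain, then stood in contact at 20 °C for 7 days. No treatment or second strain was sampled, so the replicates were compared with each other and no test between conditions was possible. The count columns are unnamed and are called libraries A, B and C. Where 3 values follow each other, they are those of A, B and C in that order. The libraries held 64236917 to 111754018 counts, of which 67.0% to 70.1% lay on 2 transcripts outside the kinase set. Levels per length are given as RPKM, reads per kilobase and per 1000000 counts of a library. Summed reads are given as residual CPM, reads per 1000000 counts outside those 2 transcripts. A count of 3 corresponded to 0.0897, 0.133 and 0.152 residual CPM. Errors are SD over the 3 libraries. The labels call them independent biological replicates from separate blocks. In RNA from whole blocks, fewer cells with a transcript and less of it per cell cannot be told apart.

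The product names belong to the entries of P. strigosozonata, and no function was measured in V. comedens. Most names said no more than that a kinase was matched. Of the 168 transcripts, 75 matched a kinase-like protein and 72 a Pkinase-domain-containing protein, Pkinase being the name of a protein kinase domain. The names of 18 others gave a family, with 10 in the CMGC group of cyclin-dependent and MAP kinases, 3 in the tyrosine kinase-like group, 3 histidine kinases and 2 of the atypical group. The remaining 3 were taken in by the phrases although their names are not those of protein kinases. They were 2 ribokinase-like proteins, of a family of sugar kinases, and 1 protein kinase activator. No match named an AGC, CAMK, CK1 or STE kinase. The same phrases found 255 further transcripts matched to Trametes versicolor (232) or Stereum hirsutum (23), and among these were 14 AGC, 3 CAMK and 2 CK1 names.

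Together the 168 transcripts took 9776 ± 716 residual CPM (SD, n = 3). The sums were 9728, 10514 and 9085 residual CPM, so the level was highest in B and lowest in C and differed 1.16-fold. In the 255 transcripts matched to other species the sum was 2857 ± 276 residual CPM (SD, n = 3). Their median levels were low, 0.259, 0 and 0.117 RPKM. Their median length was 362 bases, against 2050 bases in the kinase set and 1318 bases in the other P. strigosozonata matches. The shortest member had 212 bases and the longest 9908. At least 100 reads were counted for 144 of the 168, or 85.7%. That share was 78.7% over all P. strigosozonata matches and 29.8% over all transcripts.

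The typical kinase transcript had a low RPKM, though a higher one than the typical transcript of either comparison set. The medians over the 168 were 2.27, 2.34 and 1.83 RPKM, a mean of 2.15 ± 0.276 RPKM (SD, n = 3). The corresponding medians were 1.58 ± 0.0591 RPKM over all P. strigosozonata matches and 0.262 ± 0.0317 RPKM over all transcripts (SD, n = 3). With the isoforms of an assembler gene summed and set against the length of the longest, the median of the kinase set was 5.53 RPKM. The comparison sets were not summed in this way, so their medians are not comparable with this value. High levels were rare. Of the 168 transcripts, 48 were below 1 RPKM, or 28.6%, against 40.2% of the 9375 other P. strigosozonata matches. From 25 to under 100 RPKM the shares were 6.55% and 6.70%. Above 100 RPKM lay 1 kinase transcript and 213 others, or 2.27% of them. The plot of cumulative levels shows both distributions.

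**Figure D1:**
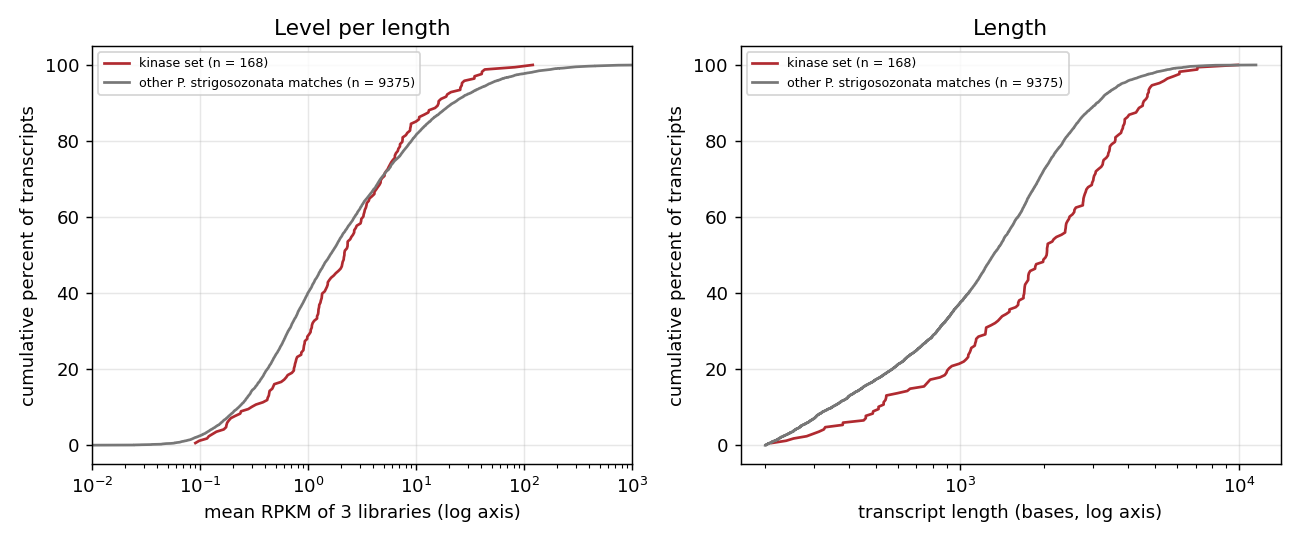
Cumulative percent of transcripts by mean RPKM of the 3 libraries (left, log axis) and by length in bases (right, log axis), for the 168 transcripts of the kinase set (red) and the 9375 other P. strigosozonata matches (grey). The red curve starts to the right of the grey one on the left panel, crosses it and reaches its end at 120 RPKM, and it lies to the right at nearly all lengths.

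Length and level went together in the set. Spearman's rho between length and mean RPKM was 0.400 over the 168 transcripts and 0.316 over the other P. strigosozonata matches. These are descriptions across transcripts, which are not replicates. From 3000 to under 4000 bases, the median was 5.26 RPKM for 29 kinase transcripts and 2.64 RPKM for 635 other matches. From 1000 to under 2000 bases the order was the opposite, with 1.35 RPKM for 46 kinase transcripts and 2.13 RPKM for 3275 others. From 4000 bases up the 23 kinase transcripts had a median of 2.00 RPKM and the 393 others 3.34 RPKM. The higher median of the set therefore did not hold at every length.

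Reads were concentrated on a few kinases. Of the 74 matched entries, 9 held over 50% of the summed reads and 39 held over 90%. All but 3 entries had at least 100 reads, and 61 had at least 1000. The entry PUNSTDRAFT_98947, a kinase-like protein, alone had 1795, 1970 and 1786 residual CPM, or 18.9% of the summed level. Library B was its highest, and A and C were close to each other. PUNSTDRAFT_58982, also a kinase-like protein, followed with 911, 875 and 744 residual CPM, or 8.63%. These entries stood apart, since the next, PUNSTDRAFT_134854, had 394, 331 and 471 residual CPM and lay below both in every library. PUNSTDRAFT_142627, PUNSTDRAFT_105587, PUNSTDRAFT_53588 and PUNSTDRAFT_88135 then had means from 310 to 348 residual CPM, and all lay below PUNSTDRAFT_58982 in every library. The least-read entry, PUNSTDRAFT_110204, had 9, 4 and 13 reads.

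**Figure D2:**
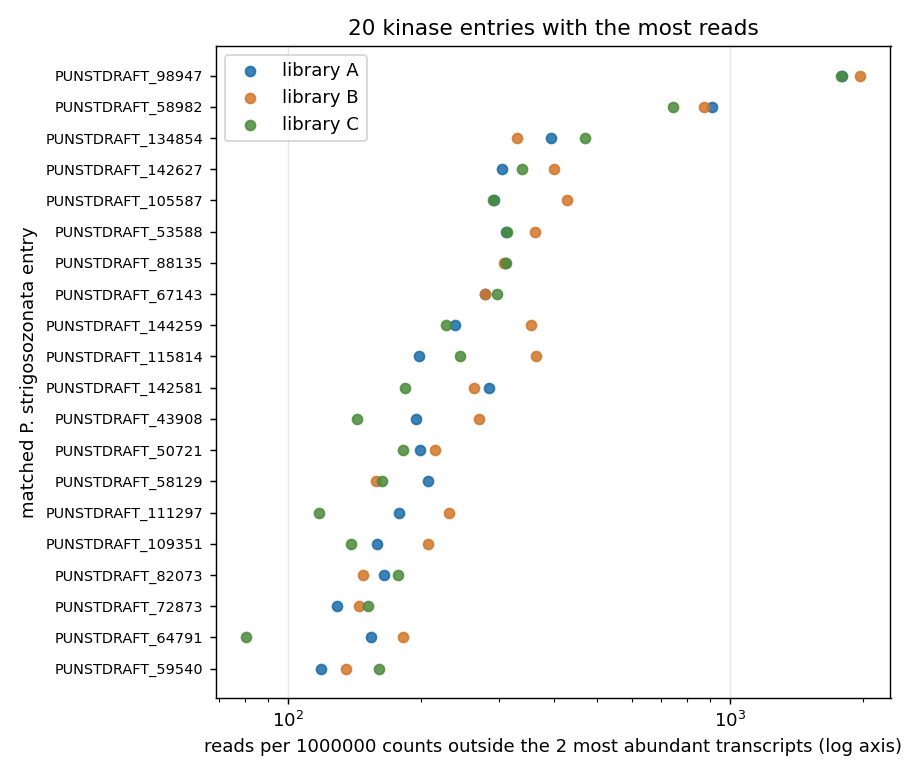
Reads per 1000000 counts outside the 2 most abundant transcripts (log axis) for the 20 matched entries with the most reads, summed over their transcripts; each point is 1 library. PUNSTDRAFT_98947 lies between 1786 and 1970, PUNSTDRAFT_58982 between 744 and 911, and no other point lies above 471.

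Transcript levels per length gave a similar leading order. TRINITY_DN29139_c0_g1_i1, of 4530 bases and matched to PUNSTDRAFT_98947, had 56333, 41736 and 33319 reads, or 111, 135 and 115 RPKM. Its mean of 120 ± 13.0 RPKM (SD, n = 3) ranked 321st among all 81106 transcripts. TRINITY_DN28272_c0_g1_i1, matched to PUNSTDRAFT_58982, had 84.9, 89.9 and 71.2 RPKM. The lowest library of the first was above the highest of the second, so these levels did not overlap.

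Behind them came a group whose order was not resolved by the replicates. TRINITY_DN27500_c0_g1_i1 (PUNSTDRAFT_144259) had 35.9, 58.6 and 35.2 RPKM and was high in library B. TRINITY_DN30121_c0_g1_i1 (PUNSTDRAFT_134854) had 38.5, 35.7 and 47.3 RPKM and was highest in library C. TRINITY_DN29139_c0_g1_i2, a 664-base isoform of the leading assembler gene, had 40.6, 46.0 and 35.7 RPKM. The mean levels of these transcripts, 43.2 ± 13.3, 40.5 ± 6.04 and 40.8 ± 5.15 RPKM (SD, n = 3), differed by less than their SD. The short isoform held 5.08%, 4.75% and 4.37% of the reads of the 2 isoforms.

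The highest Pkinase-domain transcript, TRINITY_DN23115_c0_g1_i1 (PUNSTDRAFT_142627), had 29.1, 42.1 and 33.1 RPKM, and TRINITY_DN24875_c0_g1_i1 (PUNSTDRAFT_67143), a kinase-like protein, 30.8, 37.2 and 35.8. Their ranges overlapped. The other transcripts among the 10 highest, TRINITY_DN26814_c0_g1_i1, TRINITY_DN22474_c0_g1_i1 and TRINITY_DN28414_c0_g1_i1, had 28.0 ± 3.17, 26.6 ± 3.14 and 26.5 ± 3.73 RPKM (SD, n = 3). Each of these differed at most 1.28-fold between libraries. The second Pkinase-domain transcript, TRINITY_DN26179_c1_g1_i1 (PUNSTDRAFT_43908), was less even, with 23.3, 37.7 and 16.1 RPKM, and differed 2.34-fold between libraries B and C.

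Most kinases with a family name were among the less abundant ones. The 10 CMGC transcripts summed to 24.6, 21.9 and 23.5 RPKM, and the 147 with an unspecific kinase name to 989, 1162 and 949 RPKM. A sum grows with the number of transcripts, and the medians were 1.09 and 2.43 RPKM. TRINITY_DN25720_c0_g1_i1, TRINITY_DN23686_c0_g1_i1, TRINITY_DN27466_c0_g2_i1 and TRINITY_DN30348_c0_g1_i1 had means of 8.29, 5.26, 4.84 and 2.45 RPKM. These lay above the set's median of 2.15 RPKM, and the other family-named transcripts lay below it. Without the unspecific names and the 3 products that are not protein kinases by name, the median was 0.933 RPKM. These 18 transcripts had 243 residual CPM on average, of the 9776 of the whole set.

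In the CMGC list, MAP kinases and a splicing-related kinase led. The MAP kinases are the last step of a cascade and phosphorylate targets in cytoplasm and nucleus. TRINITY_DN25720_c0_g1_i1, matched to a mitogen activated protein kinase-like protein, had 9.18, 7.77 and 7.92 RPKM, with A above the others. TRINITY_DN27466_c0_g2_i1, matched to a MAP kinase, had 4.40, 3.87 and 6.26 RPKM, with C above the others. These 2 transcripts were thus highest in different libraries. The 2 isoforms matched to CMGC/MAPK protein kinase PUNSTDRAFT_52770 had 1.05 ± 0.289 and 1.46 ± 0.220 RPKM (SD, n = 3).

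TRINITY_DN23686_c0_g1_i1, matched to a CMGC/CLK protein kinase, had 6.14, 5.06 and 4.58 RPKM and was thus highest in A. CLK kinases are known from animals to phosphorylate SR proteins of the splicing machinery. The CDK7 entry, PUNSTDRAFT_123096, was matched by 5 transcripts of 239 to 382 bases, which together had 101, 50 and 52 reads. CDK7 is known from animals as the kinase that activates other cyclin-dependent kinases and phosphorylates RNA polymerase II. TRINITY_DN42709_c0_g1_i1 had no read in library C and TRINITY_DN42709_c0_g2_i2 none in library B, each with 6 reads in library A, so differences between libraries were not detectable for them at this depth.

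All 3 histidine kinase transcripts matched PUNSTDRAFT_117162 and had the same order of libraries. TRINITY_DN29888_c0_g1_i2 had 1.87, 1.56 and 1.05 RPKM. Its isoform TRINITY_DN29888_c0_g1_i1 had 1.62, 1.43 and 0.948 RPKM. TRINITY_DN26554_c0_g2_i1, from another assembler gene, had 1.06, 0.873 and 0.337 RPKM. Library A was highest and library C lowest for each. These transcripts have 3276 to 3989 bases. From 3000 to under 4000 bases, C was lowest in residual CPM for 54.5% of the other P. strigosozonata matches. The fold from C to A was 1.77, 1.71 and 3.14, and the summed reads of the entry, 1924, 996 and 577, differed 1.97-fold in residual CPM.

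The atypical kinases were 2 transcripts matched to TRRAP, PUNSTDRAFT_84856. TRRAP, whose yeast form is Tra1, belongs by sequence to the phosphatidylinositol kinase-related family but lacks kinase activity and serves as a scaffold of histone acetyltransferase complexes. TRINITY_DN30348_c0_g1_i1, of 5542 bases, had 2.65, 2.63 and 2.08 RPKM, and TRINITY_DN19680_c0_g1_i1, of 4563 bases, 0.845, 0.823 and 0.662 RPKM. Both were lowest in library C, and both differed 1.28-fold. The tyrosine kinase-like entry, PUNSTDRAFT_93575, was matched by 3 isoforms with 104, 33 and 21 reads, or 3.11, 1.47 and 1.06 residual CPM. It was highest in A.

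The 3 products that are not protein kinases by name were more abundant than most members with a family name. TRINITY_DN24821_c0_g1_i1, matched to a protein kinase activator, had 15.9, 16.3 and 16.1 RPKM, and its libraries differed 1.03-fold. The ribokinase-like transcript TRINITY_DN28251_c0_g1_i1 had 10.1, 10.3 and 11.5 RPKM, and the second, TRINITY_DN25645_c0_g1_i3, 1.29, 1.76 and 1.52 RPKM. Without these 3, the median of the set was 2.12 RPKM.

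**Figure D3:**
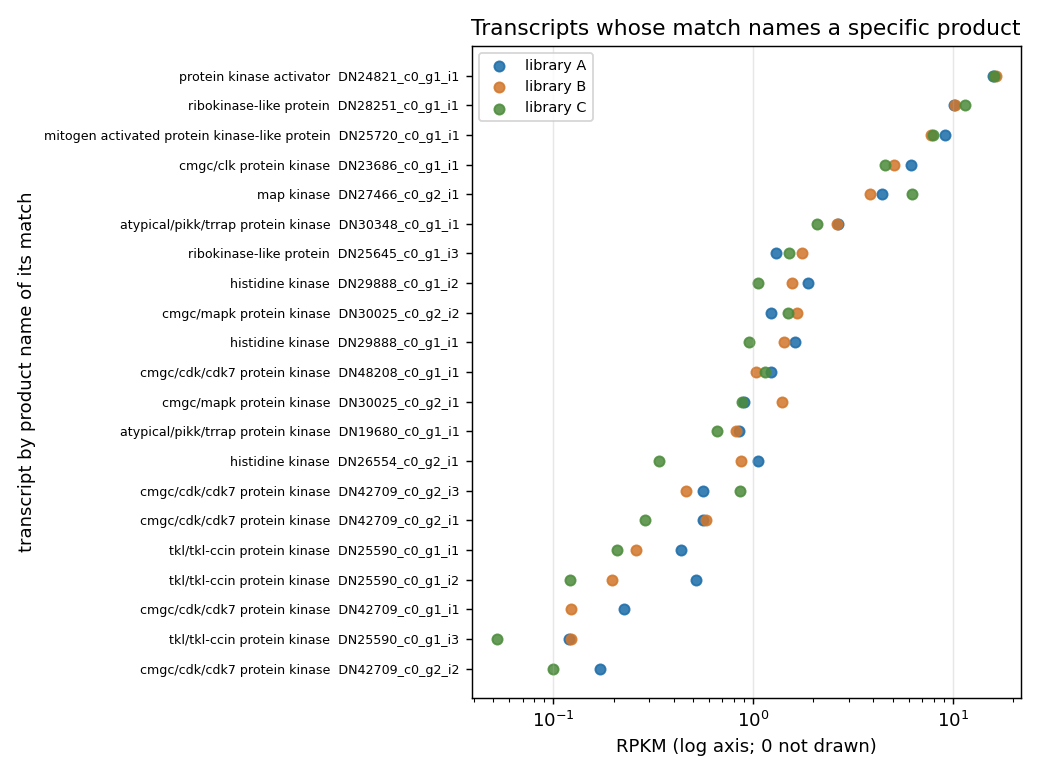
RPKM (log axis) in libraries A, B and C of the 21 transcripts whose match names something more specific than a kinase-like or Pkinase-domain protein; a library with 0 reads is not drawn. The protein kinase activator lies near 16 RPKM in the 3 libraries, the CDK7 and tyrosine kinase-like transcripts lie at or below 1.23 RPKM, and library C (green) is the lowest for all 3 histidine kinase transcripts.

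The spread between replicate blocks was then described for the 144 transcripts with at least 100 reads in all. The median fold between the highest and the lowest library was 1.43 in CPM, against 1.45 over P. strigosozonata matches and 1.52 over all transcripts with as many reads. Over 2-fold differed 20 of the 144 kinase transcripts. The background was 15.0% of 7507 P. strigosozonata matches and 21.5% of 24194 transcripts, so the kinase share of 13.9% was near the background. In residual CPM 18 of 144 differed over 2-fold, with 14.9% of the P. strigosozonata matches. The largest fold in the kinase set was 3.94 in residual CPM. A share above 90% in a single library, after scaling for depth, was found for 0 of 144 and for 4 of 7507 P. strigosozonata matches, or 0.0533%.

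The 18 transcripts came from 8 assembler genes and 7 entries, and 8 of them were isoforms of 1 assembler gene. In 17 of the 18 the lowest library was C, and in the other it was A. Transcripts over 2-fold and lowest in C were thus 17 of 144, with a background of 6.69% of P. strigosozonata matches. Between libraries B and C, 14 kinase transcripts differed over 2-fold in residual CPM, all of them lower in C, or 9.72%, with a background of 4.64% in that direction. Between A and C there were 11, all lower in C, or 7.64%, with a background of 4.61% in that direction. Between A and B there was 1, which was higher in B, with a background of 0.999%. In CPM the counts were 16, 10 and 3, all in the same directions, with backgrounds of 6.11%, 4.29% and 1.77%. Among all P. strigosozonata matches the calls between B and C fell on both sides, 343 higher in C and 348 higher in B. Between A and C, 154 were higher in C and 346 in A. Between A and B, 75 were higher in B and 362 in A. Counted in both directions, the backgrounds in residual CPM were 9.20% for B and C, 6.66% for A and C and 5.82% for A and B. The kinase shares were 9.72%, 7.64% and 0.694%. Without library C, 3 transcripts differed over 2-fold in CPM, without library B, 10, and without library A, 16, as against 20 with the 3 libraries. By construction 2 libraries cannot give a larger fold than 3. Over all P. strigosozonata matches, too, the shares between 2 libraries in residual CPM were below the 14.9% found with 3.

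**Figure D4:**
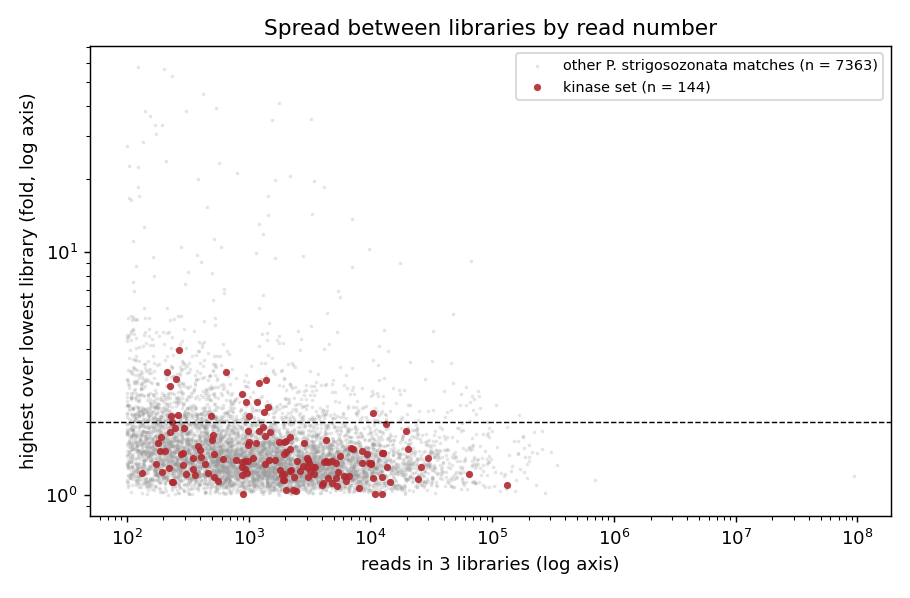
Fold between the highest and the lowest library in residual CPM (log axis) against reads in the 3 libraries (log axis) for 144 kinase transcripts (red) and 7363 other P. strigosozonata matches with at least 100 reads (grey); the dashed line marks 2-fold. The 18 red points above the line reach 3.94-fold, while grey points reach much higher values.

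The isoforms of PUNSTDRAFT_64791, a Pkinase-domain-containing protein, made up the 8 calls of 1 assembler gene. Its 10 isoforms, of 1072 to 4802 bases, had 5149, 4105 and 1590 reads, or 154, 183 and 80.5 residual CPM. All 10 were lowest in library C. TRINITY_DN30141_c0_g1_i1 had 1.18, 1.87 and 0.586 RPKM and TRINITY_DN30141_c0_g1_i4 1.06, 1.51 and 0.486 RPKM. Isoforms share sequence, and no source used here states where reads common to them were counted, so these calls are not independent of each other.

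Of the 5 largest folds, TRINITY_DN26554_c0_g2_i1 is the histidine kinase transcript described above, with 654 reads. Another pair had fewer reads. TRINITY_DN28991_c0_g2_i1, of 488 bases and matched to PUNSTDRAFT_142581, had 167, 78 and 25 reads, or 3.06, 2.35 and 0.798 RPKM. Another short transcript of that entry, TRINITY_DN28991_c0_g1_i1 of 542 bases, had 469, 306 and 106 reads. It differed 2.61-fold in residual CPM and was also lowest in C. The transcripts of at least 3450 bases of that entry differed 1.48- and 1.52-fold in residual CPM, and the entry as a whole had 285, 264 and 184 residual CPM. TRINITY_DN27172_c0_g1_i4, matched to PUNSTDRAFT_74482, had 79, 106 and 29 reads. Of the 6 isoforms of its assembler gene, i1, i2 and i6 also exceeded 2-fold in residual CPM, at 2.82, 2.12 and 2.00. Of these, i1 and i6 were lowest in C and i2 in A, while i3 and i5 stayed under 2-fold. The entry pools 3 assembler genes and had 1674, 1526 and 1043 reads. It differed 1.36-fold in residual CPM and was lowest in A. Summed by entry, 3 of 71 with at least 100 reads differed over 2-fold, with a background of 9.68% of 3575 other P. strigosozonata entries. These were PUNSTDRAFT_64791, PUNSTDRAFT_69152 and the tyrosine kinase-like PUNSTDRAFT_93575, named here after their values were seen.

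Other kinases were nearly level across the blocks. TRINITY_DN29511_c0_g1_i1 (PUNSTDRAFT_106884) had 1818, 1105 and 1047 reads, or 7.497, 7.472 and 7.511 RPKM. TRINITY_DN27887_c0_g1_i1 had 4.70 ± 0.188, TRINITY_DN27564_c0_g1_i2 3.35 ± 0.124 and TRINITY_DN30270_c0_g1_i5 2.67 ± 0.116 RPKM (SD, n = 3). With the protein kinase activator, these were the 5 members with the smallest folds, all at 1.08 or less in CPM. In residual CPM the fold of the first was 1.11 and that of the last 1.18. The entry PUNSTDRAFT_88135 had 310, 308 and 311 residual CPM and differed 1.01-fold.

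The order of the libraries was tilted towards low values in C. In residual CPM, C was the lowest library for 77 of 144 kinase transcripts, with a background of 40.9% of P. strigosozonata matches and 37.2% of all transcripts. Library B was the highest for 61 of 144, with 35.5% of P. strigosozonata matches. Over entries, in which isoforms are summed, C was lowest for 39 of 71, against 40.4% of the other P. strigosozonata entries, and B was highest for 31 of 71, against 35.2%. The median log2 difference of C from B in residual CPM was -0.24 over the kinase transcripts and -0.05 over the other P. strigosozonata matches. The median difference of C from A was -0.18 and -0.08, and that of B from A was 0.02 and -0.03. Scaling by the whole totals instead moved the median over all transcripts from -0.09 to 0.05 for B from A and from 0.02 to -0.08 for C from B. With that scaling C was the lowest library for 80 of the 144, with a background of 42.8% of P. strigosozonata matches, and B the highest for 86, with a background of 46.3%.

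Length moved with this order in both sets. In the other P. strigosozonata matches, the median log2 difference of C from B in residual CPM was 0.16 under 1000 bases, -0.13 from 2000 to under 3000 bases and -0.28 from 4000 bases up. In the kinase set it was -0.05 (n = 15), -0.13 (n = 34) and -0.65 (n = 23) in the same classes. From 3000 to under 4000 bases it was -0.23 in both sets. The difference of C from A was -0.13 in the kinase set and -0.08 in the others from 2000 to under 3000 bases, and -0.22 and -0.12 from 3000 to under 4000 bases. The kinase set was the longer one, and the part of length in the order of its libraries was not tested. In the class from 4000 bases up, 8 of the 23 transcripts were the isoforms of PUNSTDRAFT_64791. Without that assembler gene the median was -0.45 over 15 transcripts of 12 assembler genes, and C was the lowest library for 11 of these, with a background of 65.6% of the other matches of that length. The longest member, TRINITY_DN30496_c0_g1_i1 of 9908 bases, had 179, 231 and 118 residual CPM.

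**Figure D5:**
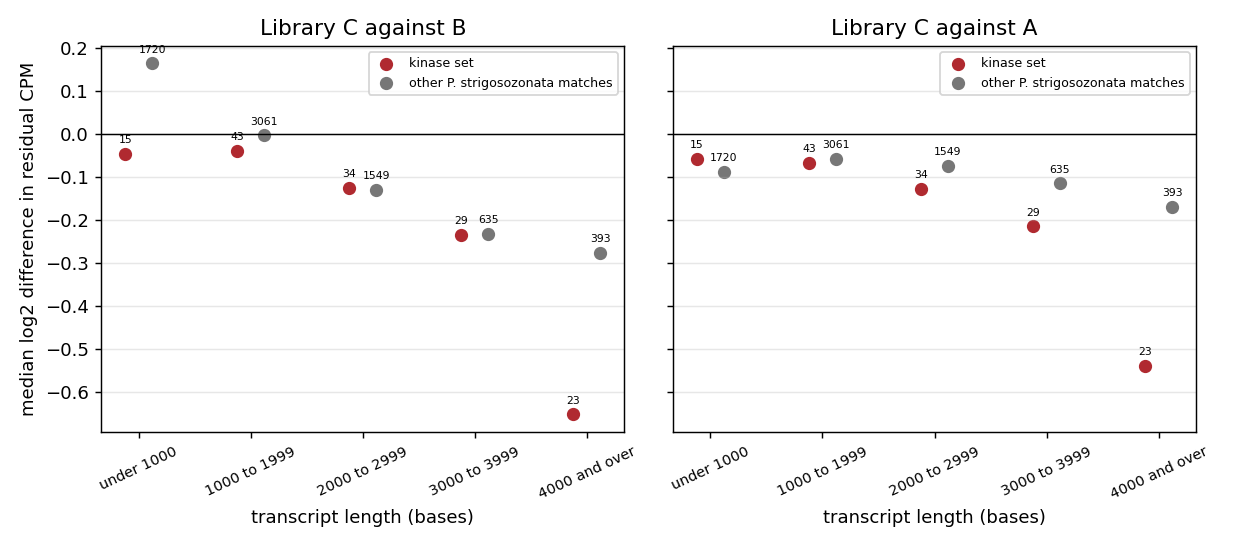
Median log2 difference in residual CPM of library C from library B (left) and from library A (right) by transcript length class in bases, for kinase transcripts (red) and other P. strigosozonata matches (grey) with at least 100 reads; the small numbers are transcripts per class. Both sets fall with length against B, from 0.16 to -0.28 for the other matches, and the kinase transcripts of at least 4000 bases lie lowest at -0.65 against B and -0.54 against A.

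Isoform shares were taken among the reads of a gene's isoforms in the set, leaving out isoforms outside it. Of the 102 assembler genes, 66 had 1 transcript in the set and 36 had 2 or more, up to 10. For 28 of these with at least 1000 reads, the largest change of an isoform's share between libraries had a median of 3.89 percentage points. Over 1407 other assembler genes, with their P. strigosozonata isoforms treated alike, it was 4.56 points. It exceeded 10 points in 2 of the 28, or 7.14%, and in 11.3% of the others. The largest was for TRINITY_DN27716_c0_g2_i1, an isoform matched to PUNSTDRAFT_98947, with 17.7% of the reads in A (Clopper-Pearson 95% interval 14.6 to 21.1), 29.8% in B (25.3 to 34.6) and 14.9% in C (11.1 to 19.3). It was thus highest in library B, and the interval of B did not overlap the others. This isoform was picked for its large change, so the gap between the intervals is no support for a difference. Its assembler gene had 1262 reads. At the other end, the isoforms of PUNSTDRAFT_122008 differed by 0.586 points. How reads common to isoforms were counted is unstated, so these shares describe the deposited counts and not isoform use. The intervals cover counting error only.

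Some assembler genes crossed the border of the set. Of the 102, 14 also had isoforms outside it, and in 9 of these an isoform matched another species. In the gene of TRINITY_DN29180_c0_g1, the isoform with a P. strigosozonata match held 33.5% of the reads and 2 isoforms matched to T. versicolor held the others. Over the 102 assembler genes, 94.6% of the reads fell on members. The most abundant transcript found by the same phrases in another species was TRINITY_DN20516_c0_g1_i1, matched to a kinase-like protein of S. hirsutum, with 89.9, 169 and 105 RPKM. Its mean of 121 ± 42.2 RPKM (SD, n = 3) was close to that of the leading P. strigosozonata match.

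Partners of the kinases among P. strigosozonata matches were few, with 42 transcripts in all and a median of 1.76 ± 0.146 RPKM (SD, n = 3). Protein phosphatases remove the phosphate again, and the list made by their name had 24 transcripts with a median of 7.07 ± 0.578 RPKM (SD, n = 3). That list also took in regulatory subunits of protein phosphatase 2A and isoforms of a protein phosphatase methylesterase, which are not phosphatases by name. Of the 22 in the list with at least 100 reads, 2 differed over 2-fold in CPM, or 9.09%, with a background of 15.0% of P. strigosozonata matches. In residual CPM 3 differed over 2-fold, or 13.6%, with a background of 14.9%. Protein phosphatase PP1, TRINITY_DN25796_c0_g1_i1, had 22.9, 24.7 and 21.9 RPKM. The calcium/calmodulin-dependent phosphatase TRINITY_DN27774_c0_g1_i1, of the calcineurin type, had 17.5, 15.1 and 16.8 RPKM. Library C was the lowest for the first and library B for the second. Cyclins, the regulatory partners of cyclin-dependent kinases, had 15 transcripts with a median of 0.788 ± 0.161 RPKM (SD, n = 3). The beta subunit of casein kinase II, TRINITY_DN24427_c0_g1_i1, had 18.2 ± 1.89 RPKM (SD, n = 3). The adenylate cyclase-like transcript TRINITY_DN14644_c0_g1_i1, of the enzyme type that makes cyclic AMP, had 0.603, 0.623 and 0.253 RPKM. The 14-3-3 protein, a type that binds phosphorylated proteins, had 18 reads in all. No cyclic nucleotide phosphodiesterase name was matched.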

How the data were processed

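Poly(A) RNA was made into stranded libraries and sequenced as paired reads of 125 bp, per the labels' protocols. The authors deposited raw read counts per assembled transcript with its length. The submitters' processing notes name SAMtools 0.1.19, Bowtie2 2.2.6 and cutadapt 1.2.1. Not given in the sources used here were the assembler and the counting rule. The annotation, per the file headers, came from a database built by the authors, and repeated lines of its 29875 were dropped, leaving 22605 transcripts.

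RPKM used the whole library total, and residual CPM the counts outside the 2 most abundant transcripts. Folds between libraries used transcripts with at least 100 reads and a floor of 3 counts. Intervals are exact binomial. edgeR 4.0.16 (TMM) and DESeq2 1.42.0 served for alternative scaling, with Python 3.11.15 and pandas 2.3.3 for the rest. The fold count was tried on simulated data. Its settings and outcome are not given here, so no error rate for the counts above is drawn from it. With 1 group no test was run.

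The members and lists were chosen with earlier results of these data known. Named were the 10 members with the highest RPKM (at least 300 bp and 100 reads), the 2 highest of each list, the 5 largest and 5 smallest folds and all histidine kinases. Family-named members outside this rule, leading entries and the longest member were named after their values were seen.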

Additional observations from a re-analysis of the deposited data

How the results depend on the processing

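No paired analysis was possible because the 3 libraries form 1 group. With counts outside the 2 most abundant transcripts as the total, the median rose to 6.88 RPKM for the kinase set and 5.62 for the partners. The list sums became 75.1 (CMGC), 2.196 (tyrosine kinase-like), 11.5 (histidine kinase), 10.4 (atypical), 3304 (unspecific names) and 90.7 (not protein kinases by name). That setting divides by smaller totals. With at least 500 bp, the median was 2.43 RPKM, the CMGC sum 20.9 and the partner median 1.55. With assembler genes summed, the median was 5.53 RPKM and 10 genes differed over 2-fold, among the 88.2% with at least 100 reads. With the 18 family-named transcripts alone, the median was 0.933 RPKM, the sum 243 residual CPM, the share with 100 reads 55.6% and the count over 2-fold 1. Over the whole set that count was 31 with no minimum of reads and 6 at 3-fold. No share over all transcripts is given at these changed settings, so the counts have no background. With 1 library left out, the count over 2-fold ran from 3 (without C) to 16 and the median fold from 1.204 to 1.33. By construction 2 libraries cannot give a larger fold than 3. TMM and DESeq2 left these summaries within 1 SD or 1.5-fold. The RPKM of all 28 named transcripts moved by over 1 SD with the smaller totals, while 56 of 56 values under TMM or DESeq2 lay within 1 SD. Filters cannot change a single RPKM. Depth limits the CDK7 and tyrosine kinase-like transcripts, each with under 100 reads.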

Other observations

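Kinase family names were also found among transcripts matched to Trametes versicolor. Of the families given here, AGC, CAMK and CK1 had no P. strigosozonata match, while CMGC and histidine kinases had some. TRINITY_DN25082_c0_g1_i1, matched to an AMP-activated kinase of the CAMK group, a family that senses the energy state of the cell, had 10.97, 12.52 and 10.09 RPKM. The 14 AGC names had 7977 reads, of which 7070 were on TRINITY_DN29996_c0_g1_i2, matched to an NDR kinase, with 5.86, 6.71 and 5.15 RPKM. That assembler gene also had an isoform in the kinase set, TRINITY_DN29996_c0_g1_i3, matched to the kinase-like protein PUNSTDRAFT_100309 with 4854 reads. The 2 CK1 names had 1116 reads. The 17 CMGC names had 31002 reads, and TRINITY_DN24497_c0_g1_i1, matched to an ERK-type MAP kinase, had 23.4, 18.6 and 23.9 RPKM, above every MAP kinase matched to P. strigosozonata. TRINITY_DN22119_c0_g1_i1, matched to the regulatory subunit of the cyclic AMP-dependent protein kinase, had 16.6, 22.1 and 26.5 RPKM, with A lowest and C highest. The histidine kinase names numbered 15 with 6165 reads, and TRINITY_DN27640_c0_g2_i2 and its isoform TRINITY_DN27640_c0_g2_i1 had 3.80, 4.09 and 2.02 and 3.58, 4.25 and 2.03 RPKM. In RPKM both were lowest in library C, as were the 3 histidine kinase transcripts matched to P. strigosozonata. These isoforms were highest in B, and those transcripts in A. Both isoforms are from the same assembler gene and were picked from the 15 names. The library order of the other names was not described, so no common order of histidine kinases is drawn from this. Among the kinase names matched to other species with at least 100 reads, C was lowest in CPM for 36 of 64.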
